A study of Triticum aestivum with 24 samples.

Results

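The 5 tags described here are the sequences that the study lists under miR528 in wheat leaves, 5 of the 202 miRNA tags that were counted. A tag is a distinct small RNA sequence with its read count. They were selected on their name, miR528, and all of them match a single precursor. The family itself was singled out after its levels under heat and across the heat days had been seen. For this reason the levels of miR528 in heat against control and between heat days are given as a description. Which of these tags passed an FDR of 0.05 is stated beside the share of all tags that did, and supports nothing, since the choice of the family fixed it. Among miR528 results, only the days within control are given as a test. The control days were not compared for that choice, but control at the end of the stress was part of the heat-control difference. Comparisons of that group with later control days are therefore not independent of the choice. Tags had entered the deposited table because each reached a minimum level in at least 1 library.

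Triticum aestivum cv Chinese Spring, hexaploid wheat descended here from the selfed seed of a single plant, was grown at 18 °C in light for 16 h and at 16 °C in darkness for 8 h a day. At boot stage, heat plants were kept at 37 °C for 5 days with ample water, and control plants stayed in the growth conditions. Leaves were taken at the end of the stress (0 days after treatment, DAT) and at 1 and 4 DAT, which gave the groups Control 0 DAT, Heat 0 DAT, Control 1 DAT, Heat 1 DAT, Control 4 DAT and Heat 4 DAT. Each group had 4 small RNA libraries (n = 4 throughout), each from the pooled RNA of 18 plants, and each plant gave leaf tissue on all 3 days. In whole leaves, a lower level in each cell and fewer cells that hold the miRNA cannot be told apart. The table holds miRNA tags only, so the leaf identity of the samples was not checked against cell markers.

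miR528 is known from monocots. In rice and maize it guides the silencing of mRNAs for copper-binding proteins, among them laccases, plantacyanins and ascorbate oxidase, and it belongs with miR398, miR397, miR408 and miR857 to the miRNAs that rise in plants short of copper. A plant miRNA precursor folds back on itself and DCL1 cuts a duplex out of the stem. One strand becomes the mature miRNA in the Argonaute complex and the other, the star strand, is usually lost.

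The 5 sequences are shown because the tags differed in their response although they come from the same stem. They are written 5′ to 3′ in DNA letters as deposited, with the seed (bases 2 to 8) in capitals.
miR528-1.1-5p: gCAGCAGCggtggaaggggc
miR528-1.2-5p: tGGAAGGGgcatgcagaggag
miR528-1.3-3p: cCTGTGCCtgcctcttccatt
miR528-1.4-3p: tGCCTGCCtcttccattcctg
miR528-1.5-5p: gGAAGGGGcatgcagaggagc
The first tag is 20 nt long and the others are 21 nt. Each of the 5 had a seed of its own, and none of these seeds was the seed of another of the 202 tags or occurred anywhere in a tag of another family.

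The precursor, pre-miR528-1, lies on chromosome 5A at chr5A:663320619-663320737 of IWGSC RefSeq v1.0, as the study lists it. It is shown with the bases covered by any of the 5 tags in capitals.
pre-miR528-1: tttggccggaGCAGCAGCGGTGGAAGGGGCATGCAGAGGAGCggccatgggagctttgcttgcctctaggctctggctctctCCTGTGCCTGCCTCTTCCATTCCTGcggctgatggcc
The hairpin is 119 nt long with a GC content of 63.9%, and RNAfold gave it a minimum free energy of -69.7 kcal/mol with 88 paired bases.

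Counted from the first base of the precursor, miR528-1.2-5p spans bases 21 to 41 and miR528-1.3-3p bases 83 to 103. In the predicted fold these tags face each other with 17 base pairs and a 3′ overhang of 2 nt at both ends, the geometry of a miRNA and its star. miR528-1.5-5p spans bases 22 to 42, so it shares 20 bases with miR528-1.2-5p and is shifted by 1, which changes its seed. miR528-1.4-3p, at bases 87 to 107, is shifted by 4 from miR528-1.3-3p and shares 17 bases with it. miR528-1.1-5p lies apart from these at bases 11 to 30. It begins 10 bases before miR528-1.2-5p, shares 10 bases with it, and has no partner among the tags with a 2-nt overhang: opposite miR528-1.4-3p the 3′ ends fall 4 and 5 bases short.

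**Figure D1:**
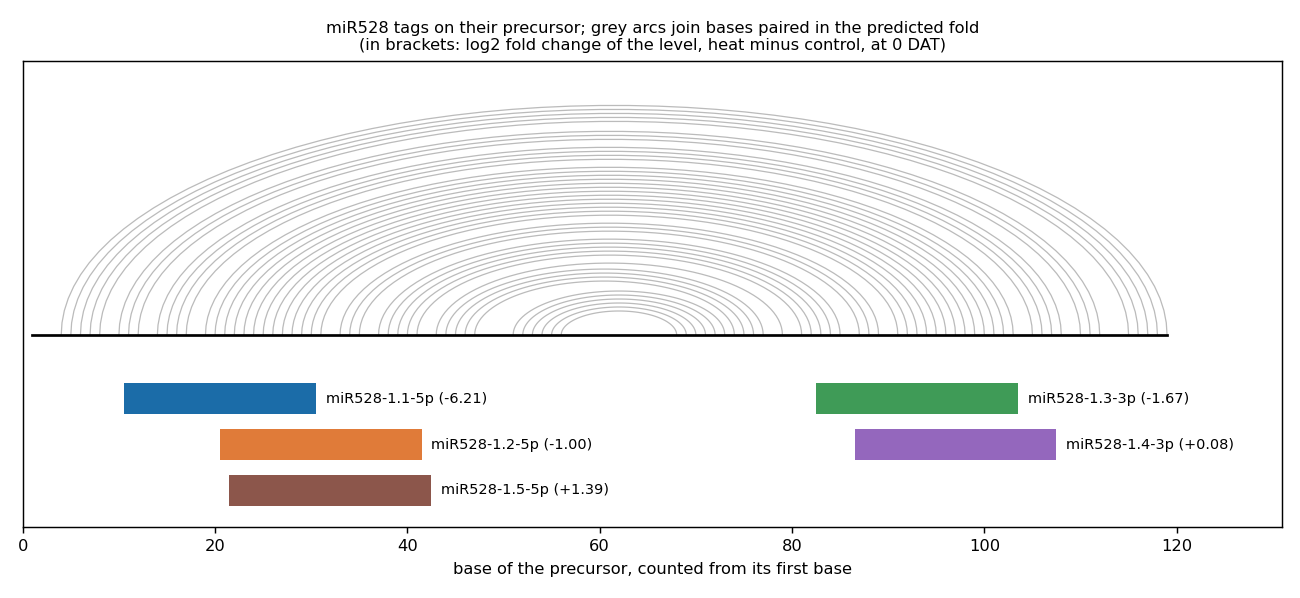
Position of the 5 miR528 tags on the precursor (bases counted from its first base), with grey arcs that join bases paired in the RNAfold structure and, in brackets, the log2 fold change of heat against control at 0 DAT. The 3 tags of the 5p arm overlap in position and had changes of -6.21, -1.0 and 1.39.

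The study listed target sites of miR528-1.2-5p that it found by sequencing the cut ends of mRNAs (the degradome). The study reports superoxide dismutase [Cu-Zn] and L-ascorbate oxidase as targets of this tag, but their sites were not in the part of the list used here. The sites in that part lie in other transcripts annotated as copper proteins. They are shown to compare how far each of the 5 tags matches them. Capitals mark the bases that face the seed of miR528-1.2-5p.
TraesCS6A01G158900.1, copper-transporting ATPase: ctcctctgcagcCCCTTCCg
TraesCS7B01G080800.1 and TraesCS7D01G177000.1, blue copper protein: ctcttctgcatgcCGCCTTCt
In the alignment of the ATPase site, 19 bases of miR528-1.2-5p form Watson-Crick pairs, 1 forms a G-U pair and 1 is left in a gap, and the seed is fully paired. At the blue copper protein site, 16 bases form Watson-Crick pairs and 2 G-U pairs, with 3 mismatches of which 2 are in the seed. Slid along these sites without gaps, miR528-1.1-5p reached at most 11 and 8 Watson-Crick pairs, against 15 and 16 for miR528-1.2-5p and likewise for miR528-1.5-5p. The 197 tags of other families reached a median of 7 and 8 pairs and a maximum of 10 and 11. The sites were listed because they were predicted from their match to miR528-1.2-5p. Its higher pairing, and that of miR528-1.5-5p with nearly the same bases, was thus fixed in advance and supports nothing. The pairing of miR528-1.1-5p is not independent of that choice either, since it shares 10 bases with miR528-1.2-5p, the seed of the latter among them. These are matches of letters. The degradome reads were not analysed here, and neither were other targets.

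Together the 5 tags had 4362 of 3421194 miRNA reads. Levels are given as RPM (reads in 1000000 miRNA reads of a library), with the libraries scaled by TMM factors. A library had between 58501 and 300261 miRNA reads, so at the shallowest depth a single read stood for more than 10 RPM. Averaged over the 24 libraries, the order of levels was miR528-1.1-5p, miR528-1.2-5p, miR528-1.3-3p, miR528-1.4-3p and miR528-1.5-5p. miR528-1.1-5p exceeded miR528-1.2-5p in 20 of 24 libraries, and the other 4 were the Heat 0 DAT libraries, where miR528-1.2-5p was higher in every one. miR528-1.2-5p exceeded miR528-1.3-3p in 19 libraries, miR528-1.3-3p exceeded miR528-1.4-3p in 19, and miR528-1.4-3p exceeded miR528-1.5-5p in 19.

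At the end of the stress, the sum of the 5 tags was 382 ± 89.6 RPM (SD) in heat, against 1738 ± 630 RPM in control. The heat libraries held 284, 445, 470 and 328 RPM, and the control libraries 1154, 2154, 2397 and 1246 RPM. The 4 heat libraries were thus all below the lowest control library. The fitted change of the sum was -1.97 ± 0.28 on the log2 scale (SE), a level 3.90-fold lower. By level it ranked 19 of the 37 families in Control 0 DAT and 26 in Heat 0 DAT.

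Most of the lost signal was in 1 tag. miR528-1.1-5p, the 20-nt tag that has no duplex partner among the 5, had 73, 219, 99 and 119 reads in the control libraries and 1, 0, 2 and 2 reads in the heat libraries at 0 DAT. In RPM these are 487, 1400, 1492 and 668 in control and 16.7, 0, 14.9 and 21.8 in heat. No heat library came near the lowest control library. Its rank by level among the 202 tags was 28 in Control 0 DAT and 200 in Heat 0 DAT.

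The fitted log2 fold change of miR528-1.1-5p was -6.21 ± 0.57, that is 73.8-fold lower in heat, and it was the lowest of all 202 tags, followed by -2.69 for miR1135-1458-3p. Pooled over libraries without TMM, 5 of 353792 reads in heat stood against 510 of 551430 in control, a ratio of 65.4 with an exact 95% interval of 27.9 to 202. The libraries carried no molecular identifiers to tell copies of 1 molecule apart, so this interval and the limits given for 0 reads cover counting error only. Heat replicate 2 had 0 reads of 86945, which allows up to 34.5 RPM (3 reads) before TMM. Relative to all reads of 18 to 24 nt instead of miRNA reads, the tag averaged 0.724 ± 0.540 RPM in the heat libraries and 54.3 ± 26.2 RPM in the control libraries, so the gap did not rest on the miRNA total.

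miR528-1.2-5p, whose sequence is that of the mature miR528 of rice, was at 387, 339, 317 and 309 RPM in Control 0 DAT and at 184, 163, 157 and 175 RPM in Heat 0 DAT. These 2 groups were the tightest of the tag, with coefficients of variation of 10.4% and 7.18%, and they did not overlap. Its fitted change was -1.0 ± 0.31 on the log2 scale, a level 2.0-fold lower, far smaller than the change of the first tag.

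miR528-1.3-3p, its star strand in the predicted duplex, was at 200.1, 345, 482 and 196 RPM in control and at 50.2, 109, 119 and 76.4 RPM in heat at 0 DAT. Here too every heat library was below every control library, with a fitted change of -1.67 ± 0.56. The log2 ratio of miR528-1.2-5p to miR528-1.3-3p overlapped between the groups, from -0.60 to 0.94 in control and from 0.38 to 1.72 in heat.

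miR528-1.5-5p, the copy shifted by 1 base from the mature tag, had a difference of the opposite sign. It had 20.01, 32.0, 15.1 and 16.8 RPM in control and 33.5, 54.5, 89.4 and 43.7 RPM in heat, from 12 and 24 reads in all. The groups did not overlap, but the lowest heat library and the highest control library differed by less than the value of 1 read, and the change of 1.39 ± 0.78 was not called. miR528-1.4-3p, the shifted tag of the 3p arm, overlapped widely, with 38.3 to 90.4 RPM in control, 0 to 118 RPM in heat and a change of 0.08 ± 0.64. Its heat replicate 1 had 0 reads, which allows up to 43.5 RPM.

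In all, 3 of the 5 tags were called lower in heat at 0 DAT (FDR < 0.05), where 8.42% of the 202 tags were called lower. In 3 of the 5, every heat library was below every control library, a pattern found in 12.4% of all tags, and the reverse pattern of miR528-1.5-5p was found in 10.9%. Since the family was chosen with these values known, nothing is read from these counts. The median change was -1.0 over the 5 tags and -0.04 over all tags. The call of miR528-1.1-5p was kept in each leave-one-out fit and each of the 9 other settings. That of miR528-1.2-5p was lost without control replicate 1 or without heat replicate 2, 3 or 4, at changes from -1.02 to -0.93. That of miR528-1.3-3p was lost without control replicate 2 or 3 or without any 1 of the heat replicates, at changes from -1.85 to -1.41, so 1 to 3 tags were called when a library was left out. With library totals without TMM, 1 tag was called, miR528-1.1-5p. The sum of the other 4 tags was 368 ± 95.5 RPM in heat and 726 ± 139 RPM in control, again without overlap, so the family was lower also when its first tag was left out, a choice made after seeing the data.

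**Figure D2:**
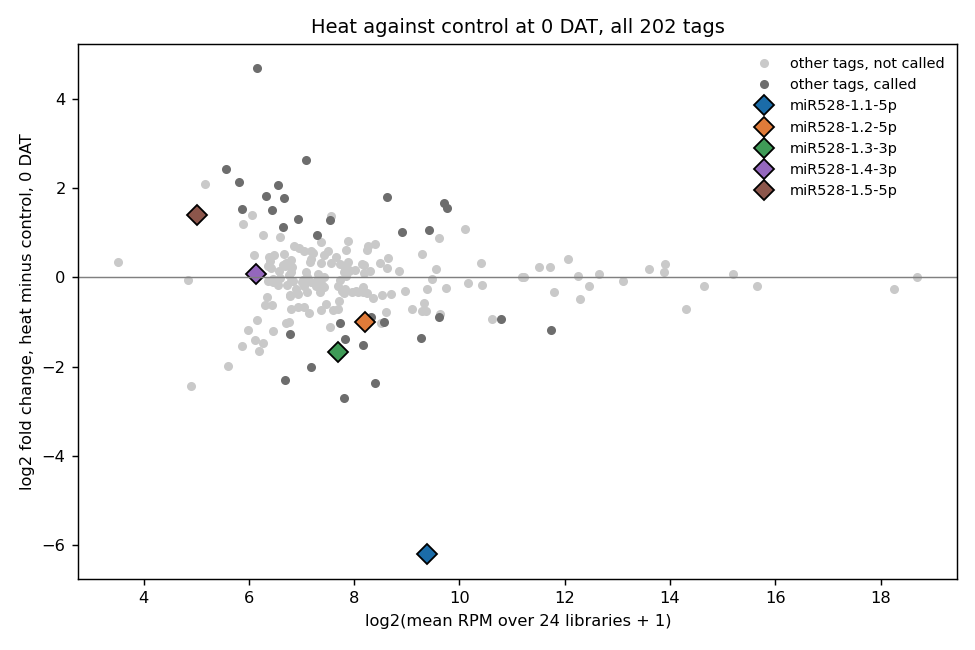
Log2 fold change of heat against control at 0 DAT for all 202 tags, plotted against log2 of the mean RPM over 24 libraries plus 1. The miR528 tags are drawn as diamonds, dark points are other tags called at FDR < 0.05, and miR528-1.1-5p lies at -6.21 while the next tag lies at -2.69.

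The make-up of the miR528 reads differed between the groups at 0 DAT. In control, miR528-1.1-5p held 42.2% to 65.0% of the miR528 reads of a library (mean 55.8% ± 10.3), and in heat it held 0% to 6.67% (mean 3.93% ± 3.02). The share of miR528-1.2-5p was 21.8% ± 9.26 in control and 47.0% ± 14.7 in heat. The share of miR528-1.5-5p was 0.629% to 1.73% in control and 11.8% to 19.0% in heat. These shares add to a fixed total, so the loss of 1 tag raises the others, and the heat libraries had as few as 17 miR528 reads.

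Ratios between tags do not depend on the scaling of libraries. With 0.5 added to each count, the log2 ratio of miR528-1.1-5p to miR528-1.2-5p was 0.33 to 2.21 in Control 0 DAT and -5.21 to -2.72 in Heat 0 DAT. The difference of the mean log2 ratios, heat minus control, was -4.91, and the groups lay far apart. The log2 ratio of miR528-1.2-5p to its shifted copy miR528-1.5-5p was 3.28 to 4.06 in control and 0.78 to 2.20 in heat, again without overlap. The log2 ratio of all 5p to all 3p reads overlapped, at 1.66 to 2.20 in control and -0.06 to 2.05 in heat.

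**Figure D3:**
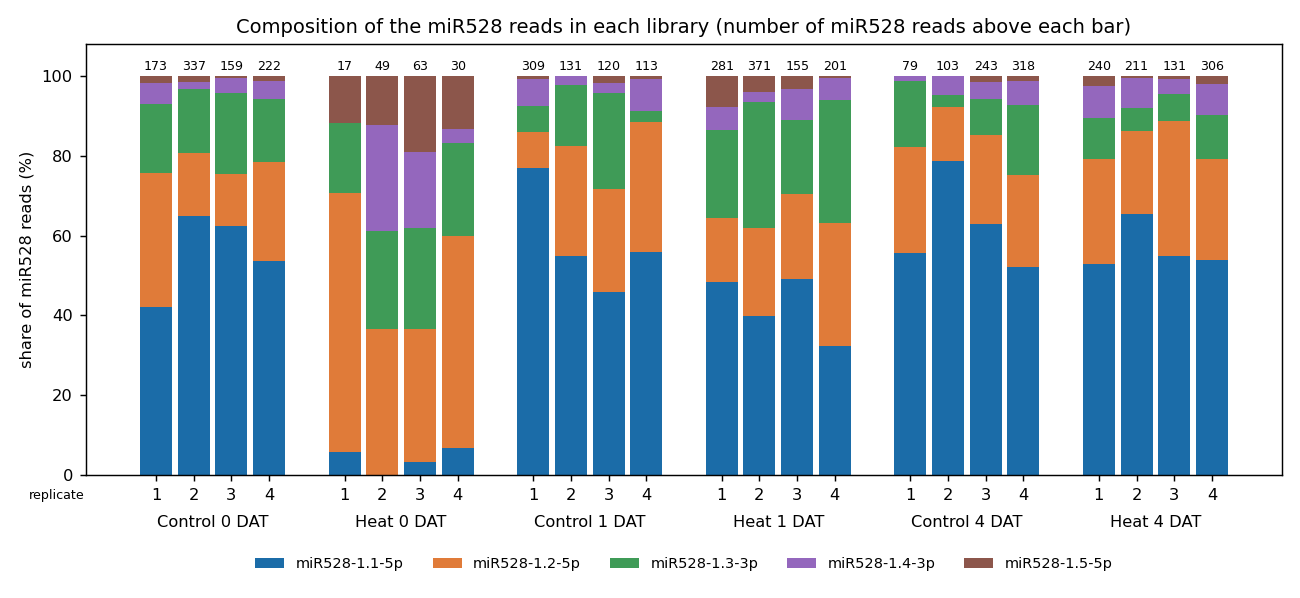
Share of each tag among the miR528 reads of a library, in percent, for the 4 replicates of each group, with the number of miR528 reads above each bar. miR528-1.1-5p takes 42.2% to 65.0% of the reads in Control 0 DAT and at most 6.67% in Heat 0 DAT.

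After 1 day of recovery, miR528-1.1-5p was back in the range of the control. Heat libraries held 1032, 658, 594 and 519 RPM and control libraries 1306, 572, 538 and 508 RPM. The ranges overlapped, and the change was -0.07 ± 0.37. Control replicate 1 stood apart from the other controls, of which the highest had 572 RPM, and without it 3 of the 4 heat libraries were above every control library and the change was 0.38. miR528-1.2-5p ranged over 258 to 495 RPM in heat and over 154 to 303 RPM in control, with a change of 0.50 ± 0.29 and overlapping groups. The sum of the tags was 1650.1 ± 377 RPM in heat and 1205 ± 344 RPM in control, a change of 0.43 ± 0.26.

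The star strand and the shifted 5p copy were higher in heat at 1 DAT. miR528-1.3-3p had 471, 520.4, 227 and 495 RPM in heat and 110, 159, 284 and 24.2 RPM in control. Of the 4 heat libraries, 3 were above every control library, and replicate 3 was not. The change was 1.60 ± 0.51, a level 3.04-fold higher. miR528-1.5-5p had 22, 15, 5 and 1 reads in heat and 2, 0, 2 and 1 reads in control, a change of 2.80 ± 0.84 from small counts. Heat replicate 4 lay within the control range, and control replicate 2 had 0 reads, which allows up to 30.4 RPM. Without heat replicate 1 the change was 2.01. Relative to all small RNA reads, miR528-1.5-5p reached 12.28 RPM in that heat library and at most 4.651 RPM in any other library. If the study's minimum level for keeping a tag was set on this scale, only that library met it. The rise of miR528-1.5-5p at 1 DAT would then not be independent of how the tag was selected.

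With miR528-1.3-3p and miR528-1.5-5p, 2 of the 5 tags were called higher at 1 DAT, where 6.44% of the 202 tags were called higher. miR528-1.4-3p, with 40.03 to 121 RPM in heat against 23.8 to 115 RPM in control, was not called (0.39 ± 0.60). Library replicate numbers correlated across treatments on this day, and with the number as a block 1 of the 2 calls was left, that of miR528-1.5-5p. The call of miR528-1.3-3p was lost without control replicate 1, 2 or 4 or heat replicate 1, 2 or 4, at changes from 1.26 to 1.73. That of miR528-1.5-5p was lost without control replicate 1, 2 or 4 or heat replicate 1, at changes from 2.01 to 2.91. From 0 to 2 tags were called when 1 library was left out, and 0 with library totals without TMM or with only these 2 groups in the fit.

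Within the pair that faces each other in the stem, the log2 ratio of miR528-1.2-5p to miR528-1.3-3p was -0.51 to 0.18 in Heat 1 DAT and 0.09 to 3.42 in Control 1 DAT. The star was at least as abundant as the mature tag in 3 of 4 heat libraries, as it was in 2 of 4 libraries of Control 0 DAT and in none of the other groups. The log2 ratio of 5p to 3p reads was 0.81 to 1.46 in heat and 1.45 to 3.02 in control, and the ranges overlapped at their ends.

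At 4 DAT the groups overlapped for every tag. miR528-1.1-5p was at 1005, 1170.2, 690.4 and 619.8 RPM in heat and at 540.1, 672, 632 and 828 RPM in control. The change was 0.38 ± 0.37. miR528-1.2-5p ranged over 289 to 499 RPM in heat and over 116 to 364 RPM in control (0.70 ± 0.29), and miR528-1.3-3p at 86.3 to 198 and 24.9 to 279 RPM (-0.12 ± 0.53). miR528-1.4-3p, with 47.9 to 150.3 RPM in heat against 12.3 to 94.7 RPM in control, had a change of 1.03 ± 0.59. Relative to all small RNA reads, miR528-1.4-3p reached 10.83 RPM in heat replicate 1 of 4 DAT and at most 9.669 RPM in any other library. If the study's minimum level was set on this scale, only that library met it. The change of this tag would then not be independent of how it was selected.

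miR528-1.5-5p had 14 reads in heat and 8 in control at 4 DAT, with 0 reads in control replicates 1 and 2, which allow up to 36.7 and 20.2 RPM. Of the 5 tags, 0 were called at 4 DAT by edgeR, 1 had an unadjusted p under 0.05 and DESeq2 called 0. Of all tags, 0.0% were called by edgeR, with 26 at an unadjusted p under 0.05 and 4 called by DESeq2. The median change was 0.70 over the 5 tags and -0.06 over all tags, and the sum of the 5 changed by 0.52 ± 0.26.

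**Figure D4:**
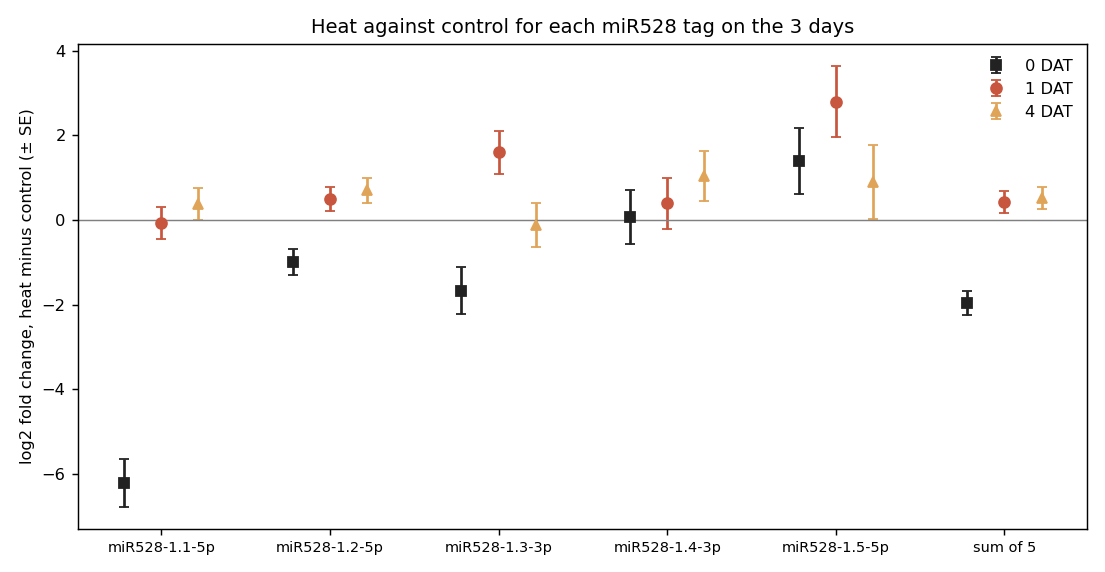
Log2 fold change of heat against control (± SE, 4 libraries a group) for each miR528 tag and for their sum at 0, 1 and 4 DAT. Changes of miR528-1.1-5p were -6.21, -0.07 and 0.38 on the 3 days, and those of miR528-1.5-5p were 1.39, 2.80 and 0.90.

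Between heat days, the description is the same from the other side. From 0 to 1 DAT the sum of the tags rose from 382 to 1650.1 RPM, a change of 2.00 ± 0.28, and the libraries of the 2 days did not overlap. miR528-1.1-5p changed by 5.69 ± 0.57, a level 51.5-fold higher after 1 day, and miR528-1.3-3p by 2.20 ± 0.55. Both were called, which makes 2 of 5 tags where 1.98% of all tags were called higher. miR528-1.2-5p changed by 1.11 ± 0.31 and was not called by edgeR's quasi-likelihood test. Its lowest library at 1 DAT, 258 RPM, was above its highest at 0 DAT, 184 RPM, and DESeq2 and the likelihood ratio test called it too, as 1 of 3 tags. The same plants were sampled on each day, and with the plant pool as a block 1 tag was called, as it was with library totals without TMM. Without any 1 of the heat replicates of 0 DAT, or without heat replicate 4 of 1 DAT, the call of miR528-1.3-3p was lost at changes of 2.06 to 2.38.

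From 0 to 4 DAT in heat, miR528-1.1-5p changed by 6.00 ± 0.57 and miR528-1.2-5p by 1.22 ± 0.31. These 2 of 5 tags were called higher, where 2.48% of all tags were. The call of miR528-1.2-5p was lost without heat replicate 3 of 0 DAT and with library totals without TMM. miR528-1.3-3p did not stay up: it had 0.48 ± 0.58 from 0 to 4 DAT and -1.73 ± 0.51 from 1 to 4 DAT. Its 4 libraries at 4 DAT, 86.3 to 198 RPM, were all below those at 1 DAT, 227 to 520.4 RPM. From 1 to 4 DAT edgeR called 0 of the 5 tags and 0.0% of all tags, with 2 of the 5 and 17 of all at an unadjusted p under 0.05. DESeq2 called 1 of the 5, miR528-1.3-3p, and 3 of all.

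In control plants the differences between days were tested, and no miR528 tag was called. Control 0 DAT was also part of the heat-control difference known when the family was chosen, so its comparisons are not independent of that choice. miR528-1.1-5p changed by -0.45 ± 0.37 from 0 to 1 DAT and by -0.58 ± 0.37 from 0 to 4 DAT. miR528-1.2-5p changed by -0.39 ± 0.29 and -0.48 ± 0.29 over the same days. miR528-1.3-3p changed by -1.07 ± 0.52 and -1.07 ± 0.51, the widest of the 5 apart from miR528-1.5-5p with -1.13 ± 0.98 at 1 DAT.

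edgeR's quasi-likelihood test called 0 of the 5 tags in each of the 3 day comparisons of control, and every adjusted p of a miR528 tag was 0.983 or higher. This test treated the libraries of different days as independent, although they came from the same plants. With the plant pool as a block, 0 of the 5 were called in each comparison too. Of all tags, 0.0% were called at 1 against 0 DAT, 0.0% at 4 against 0 DAT and 0.0% at 4 against 1 DAT, and DESeq2 called 0 in each. At an unadjusted p under 0.05 there were 1, 1 and 0 miR528 tags and 9, 7 and 5 of all tags. The sum of the tags changed by -0.40 ± 0.26, -0.61 ± 0.26 and -0.21 ± 0.27, with adjusted p over the 37 families of 0.991, 0.397 and 0.803 by the same test. Missing the threshold does not show that the levels stayed equal over the days.

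**Figure D5:**
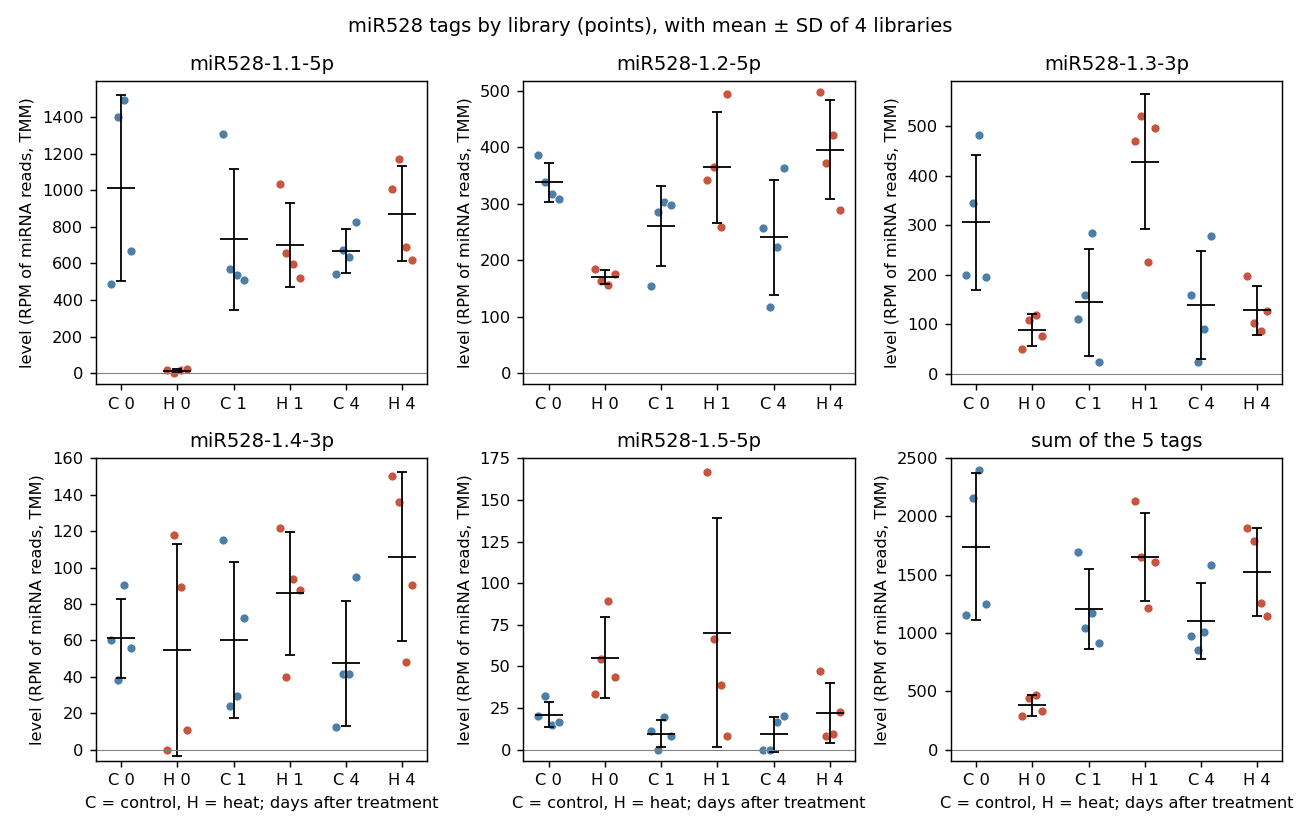
RPM of each miR528 tag and of their sum in the 24 libraries (points), with the mean and SD of each group as black bars. C stands for control and H for heat, followed by the day after treatment, and the Heat 0 DAT libraries of miR528-1.1-5p lie between 0 and 21.8 RPM while all other groups lie at 487 RPM or higher.

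Ordered by mean level, miR528-1.1-5p stood at 1012 RPM in Control 0 DAT, 871 in Heat 4 DAT, 731 in Control 1 DAT, 701 in Heat 1 DAT, 668 in Control 4 DAT and 13.4 in Heat 0 DAT. Each neighbour in this order overlapped the next, except that Heat 0 DAT lay apart. For miR528-1.2-5p the order was Heat 4 DAT (396), Heat 1 DAT (365), Control 0 DAT (338), Control 1 DAT (260.2), Control 4 DAT (240.2) and Heat 0 DAT (169.7 RPM). Of these neighbours, Control 0 DAT and Control 1 DAT did not overlap and all others did. miR528-1.5-5p had its highest means in Heat 1 DAT (70.2 RPM) and Heat 0 DAT (55.3 RPM), and its neighbours all overlapped.

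The 5 tags did not follow a single pattern. Over the 6 group means of log2 RPM, miR528-1.1-5p correlated with miR528-1.2-5p at r = 0.781, with miR528-1.4-3p at 0.649, with miR528-1.3-3p at 0.479 and with miR528-1.5-5p at -0.584. Among 155 tags of other families with a mean of at least 100 RPM, the most like it were miR1120-1455-5p (r = 0.948), miR166-11-5p (0.947) and miR166-8.2-5p (0.905). The same 3 led the likeness to the sum of the miR528 tags, with 0.931, 0.879 and 0.876. Over the 24 libraries, Spearman's rho to miR528-1.1-5p was 0.721, 0.427 and 0.703, which ranked them 1, 11 and 2. These values are a description over points that share libraries and depth. A correlation does not show the size of a change. At 0 DAT the 3 tags changed by -1.02 ± 0.42, -2.36 ± 0.39 and -0.99 ± 0.26 in heat, against -6.21 for miR528-1.1-5p, and miR1120-1455-5p was not called.

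Of the copper families, the table analysed here has tags of miR398, whose known targets are mRNAs of copper/zinc superoxide dismutase. miR398-1.1-5p was at 53.2 ± 88.2 RPM in Control 0 DAT and 7.86 ± 10.6 RPM in Heat 0 DAT, with overlapping libraries (log2 change -2.42 ± 1.28, adjusted p = 0.224 by edgeR). At 1 DAT it was at 8.00 ± 9.24 RPM in control and 76.9 ± 87.2 RPM in heat (3.30 ± 1.19, adjusted p = 0.0771 by edgeR). miR398-1.2-3p changed by -1.40 ± 1.13, 0.98 ± 0.99 and 2.03 ± 0.93 at 0, 1 and 4 DAT. Neither of these 2 tags was called on any of the days by edgeR or DESeq2, with 0, 1 and 1 at an unadjusted p under 0.05, whereas relative to all reads of 18 to 24 nt 1 of them was called at 1 DAT.

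Beside miR528-1.1-5p, the called tags with the largest falls at 0 DAT were miR1135-1458-3p (-2.69 ± 0.60, adjusted p = 0.00305 by edgeR), miR166-11-5p (-2.36 ± 0.39, adjusted p = 0.000138 by edgeR) and miR1120-1361.2-5p (-2.30 ± 0.62, adjusted p = 0.0111 by edgeR). By the study's account, miR9662 is another family whose tags come from both arms of 1 precursor. The names of miR9662-2.8-5p and miR9662-2.9-3p carry a different precursor number from those of its other tags, which was not resolved here. At 0 DAT both of the 2 5p tags of miR9662 were called lower, with -1.17 ± 0.22 for the most abundant, miR9662-1.3-5p (adjusted p = 0.000651 by edgeR). Of its 7 3p tags none was called lower and 1 was called higher, and the most abundant, miR9662-1.1-3p, changed by -0.08 ± 0.26. In miR528, tags of both arms were called lower at 0 DAT, 2 of 3 on the 5p arm and 1 of 2 on the 3p arm. Of all 202 tags, 17 were called lower and 18 higher. The 3p call, that of miR528-1.3-3p, was kept in only 2 of 8 leave-one-out fits, and DESeq2 called 1 of the 2 5p tags of miR9662. Nothing is read from these counts about the arms.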

How the data were processed

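Small RNA of 24 libraries was read from a MiSeq. The study's methods refer to an earlier tool chain for the reads, the submitters' processing notes name FastQC and Bowtie2, and the supplement mentions a size selection and the removal of chloroplast and other non-coding RNA. Per the methods, the authors matched tags that reached 10 RPM in 1 library or more to precursors of IWGSC RefSeq v1.0 with Bowtie2 without mismatches. For the versions of these tools, nothing was given in the sources used. The deposited values are raw counts of reads per tag, without normalization. Where the table numbers the first tags of the family with letters, the study's digits were used after a check that the sequences are the same. Tag sequences come from the table. The precursor, its locus and the target sites come from the study's supplementary lists, and the target list was used in part only. A tag is 1 exact sequence, so copies shifted by 1 base are counted apart.

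RPM values were computed with TMM factors. edgeR's quasi-likelihood test was run on a single fit of all 6 groups, with no filter and p-values adjusted by Benjamini-Hochberg over 202 tags or 37 families (FDR 0.05). The SE of a change is the change divided by the square root of its F statistic. Ratios between tags used a pseudocount of 0.5, and correlations log2 RPM with a prior count of 2. Versions were R 4.3.3, edgeR 4.0.16, DESeq2 1.42.0, RNAfold 2.7.2, Python 3.11.15, pandas 2.3.3, scipy 1.17.1, numpy 2.4.6 and matplotlib 3.10.9. Alternatives were DESeq2, edgeR's likelihood ratio test, other scalings, a filter, fewer groups, a block and leaving out each library.

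The members, lists and tests were chosen with earlier results of these data known. Named were the miR528 tags, those of the copper families, the 3 most like miR528-1.1-5p and the sum, the 3 other called tags with the largest falls at 0 DAT and the most abundant tag of each arm of miR9662. All replicate pairs differed by more than sampling noise. Replicates are numbered 1 to 4 in every group. By the study's methods, libraries of 1 treatment with the same number hold the same plants on each day. Between treatments, the deviations from group means of libraries with the same number correlated with r of 0.306, 0.566, 0.240 and 0.323 at 1 DAT. At 4 DAT r was -0.169, 0.499, 0.261 and 0.538, and at 0 DAT it was 0.197, 0.262, -0.119 and 0.047. The study describes a completely randomized design, so the number is not known to pair heat with control. A block on it is given as an alternative only. Sequencing runs are not given per library in the labels and were not compared. P-values measure the spread between libraries within a group, estimated over all 6 groups together. The main fit did not use that the same plants were sampled on each day.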

Additional observations from a re-analysis of the deposited data

Results flagged for a closer look

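In 60 sets of 4 values (5 tags, their sum and 4 ratios in 6 groups), 5 held a library far from the others, where chance gives about 1 in 20. Control 1 DAT replicate 1 accounted for 3 of them. Its miR528-1.1-5p level was 1306 RPM against 508 to 572 RPM in the other 3 libraries. Its miR528-1.2-5p level was 154 RPM against 286 to 303 RPM. Its log2 ratio of miR528-1.1-5p to miR528-1.2-5p was therefore 3.06 against 0.76 to 0.99. Heat 1 DAT replicate 3 had 227 RPM of miR528-1.3-3p against 471 to 520.4 RPM. Heat 0 DAT replicate 2 had a log2 ratio of miR528-1.1-5p to miR528-1.2-5p of -5.21 against -3.10 to -2.72, with 0 reads of the first tag.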

How the results depend on the processing

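The number of miR528 tags called in heat against control at 0 DAT was 3 and fell to 1 with library totals without TMM, and it was 1 to 3 when a library was left out. At 1 DAT it was 2, and 0 with library totals without TMM, 0 with only the groups compared, 1 with a filter on low counts, 1 with the replicate number as a block and 0 to 2 without a library. From 0 to 1 DAT in heat it was 2, and 1 with library totals without TMM, 1 with the plant pool as a block, 1 to 3 without a library, and 3 with the likelihood ratio test, DESeq2, DESeq2 size factors, all reads of 18 to 24 nt, without family miR166 or a filter on low counts. From 0 to 4 DAT in heat it was 2, and 1 with library totals without TMM and 1 to 2 without a library. From 1 to 4 DAT in heat it was 0, and 1 with the likelihood ratio test and 1 with DESeq2. With the replicate number as a block, 2 tags were called at 0 DAT (miR528-1.3-3p was not) and 0 at 4 DAT, and the plant pool as a block changed no other call count. The sum of the tags changed from 0 to 1 DAT in heat by 2.51 and from 0 to 4 DAT by 2.36 relative to all reads of 18 to 24 nt, and from 1 to 4 DAT by -0.53 with library totals without TMM. Without miR528-1.1-5p, an alternative chosen after seeing the data, the log2 ratio of mean sums was -0.98 at 0 DAT and 1.00 at 1 DAT. At 1 DAT, 1 of 2 miR398 tags was called relative to all reads of 18 to 24 nt. The 1 called tag of miR9662 at 1 DAT became 0 with library totals without TMM, 0 with only the groups compared, and 0 to 1 without a library. Without heat replicate 1, miR528-1.5-5p changed by 2.01 at 1 DAT. Other scalings moved the median change of all tags, at most to -0.45 from 0 to 4 DAT in heat without TMM, against -0.02 in the main fit. The cause of these shifts was not tested. Of 520 values of the main results under alternatives, 481 stayed close to the reported ones and no called value changed direction. Many of these are call counts of 0 that stayed 0, and 2 called tags in place of 3 was taken as close. The figure therefore does not measure how stable the calls of miR528 tags were. The sum in control from 1 to 4 DAT, not called, went from -0.21 to 0.01 with a filter on low counts, and the difference of the log2 ratio of miR528-1.1-5p to miR528-1.2-5p at 1 DAT went from -0.49 to 0.07 without control replicate 1. Depth limits miR528-1.4-3p and miR528-1.5-5p, with 240 and 106 reads in all.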
